A study of Mus musculus with 5 samples.

Results

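The expression of 9 genes of Nodal and Activin signaling was followed across a series of FGF2 doses in differentiating mouse epiblast stem cells. The genes were taken by symbol from the deposited gene table, 9 of its 32285 entries: the ligand Nodal, the co-receptor Tdgf1, the inhibitors Lefty1 and Lefty2, the transcription factor Foxh1 and the receptors Acvr1, Acvr1b, Acvr2a and Acvr2b. Epiblast stem cells (EpiSCs) are pluripotent cells derived from the post-implantation mouse epiblast, here a wild-type line of 129 background kept in FGF2, Activin A and the Wnt inhibitor XAV939. For the experiment all cells were placed for 3 days in N2B27 medium with 1 µM Chir99021 (Chi) and 8 ng/ml BMP4. Chi is a GSK3 inhibitor that activates Wnt signaling. The 5 groups differed only in FGF signaling: 30 nM of the FGF receptor inhibitor AZD4547 (FGFRi), or 0, 0.75, 3 or 12 ng/ml FGF2, with no FGF2 dose given for the inhibitor group. No Nodal or Activin is listed among the additions to the differentiation medium. Each group is a single 10x Genomics 3′ library of a single line, so differences between groups have no replicate check.

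Nodal is a secreted TGF-beta family ligand that keeps the epiblast pluripotent and induces the primitive streak, mesoderm and endoderm. With Tdgf1 (Cripto) as co-receptor it binds the type II receptors Acvr2a and Acvr2b and the type I receptor Acvr1b, which phosphorylate Smad2 and Smad3, and these act on DNA with Smad4 and Foxh1. Activin uses the same receptors without Tdgf1. Lefty1 and Lefty2 are secreted inhibitors that are themselves switched on by Nodal signaling and limit its range, and Nodal also raises its own transcription.

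Lefty1 and Lefty2 are neighbours on chromosome 1 of GRCm38, both on the plus strand, Lefty2 at chr1:180893108-180899103 and Lefty1 at chr1:180935022-180938400. Their coding sequences, 1104 bases each, are identical at 91.8% of positions, so it matters whether reads can tell the genes apart. The 2 transcripts share 113 stretches of 90 bases, the longest identical run being 140 bases. From the stop codon on, where reads of a 3′ library mostly fall, the longest identical run was 13 bases. Reads inside the coding sequence may still have been assigned to either gene or to none.

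Nodal lies at chr10:61417972-61425338 on the plus strand and Tdgf1 at chr9:110939603-110946158 on the minus strand, and no same-strand gene of the count table overlaps any of the 9 genes. Tdgf1 also has processed pseudogene copies elsewhere in the genome, and its counts are uncertain to that extent. The promoters of Nodal and Tdgf1 are shown because the ligand and its co-receptor differed in how they varied with FGF2. They run from 250 bases before to 50 bases after the RefSeq start (GRCm38.p6), at chr10:61417722-61418021 on the plus strand for Nodal and chr9:110946109-110946408 on the minus strand for Tdgf1. Capitals mark matches, on either strand, to a FOXH1 motif (AATNNACA), a SMAD motif (CAGAC), a T-box motif (AGGTGTGA) or a TCF/LEF motif (CTTTGAT), and the motifs do not overlap in these windows.
Nodal: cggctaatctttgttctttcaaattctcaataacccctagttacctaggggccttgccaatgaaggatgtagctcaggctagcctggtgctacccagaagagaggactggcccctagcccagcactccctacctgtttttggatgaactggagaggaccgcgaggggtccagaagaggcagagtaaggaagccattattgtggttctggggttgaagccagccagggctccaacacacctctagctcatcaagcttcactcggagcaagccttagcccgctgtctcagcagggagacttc
Tdgf1: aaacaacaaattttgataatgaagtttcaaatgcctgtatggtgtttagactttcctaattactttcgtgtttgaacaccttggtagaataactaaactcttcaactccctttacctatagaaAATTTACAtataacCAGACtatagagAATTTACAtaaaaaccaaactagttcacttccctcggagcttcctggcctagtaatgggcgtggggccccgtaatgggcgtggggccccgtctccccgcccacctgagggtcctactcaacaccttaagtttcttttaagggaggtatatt
The Tdgf1 promoter held 2 FOXH1 matches, present in 12.2% of 32851 promoters, and 1 SMAD match, present in 49.6%. The Nodal promoter held none of the 4 motifs. T-box and TCF/LEF matches were found in 1.28% and 3.73% of promoters and in neither of these. Of the other members, 4 had a promoter in the table (the receptors), with 1 SMAD match each for Acvr2a and Acvr2b and no other match. No sequence outside these windows was searched, so sites elsewhere near a gene would be missed. Whether the motifs bear on the levels was not tested.

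In all, 10653 of 15375 barcodes had at least 2500 detected genes and at most 10% mitochondrial UMIs and were retained as cells, 1696 to 2725 per library. A UMI is a molecular identifier that marks one captured transcript, and the retained cells had a median of 24408 to 29661.5 of them, or 47824660 to 81538748 in a library. Levels are UMIs summed over the cells of a library per 1000000 UMIs (CPM), with exact Poisson 95% intervals, and ratios of levels have exact conditional 95% intervals. All intervals cover counting error only, not the variation between cultures. Those of levels and ratios treat UMIs as independent. For some genes few cells held most of the UMIs, so these intervals also leave out variation between cells and can be too narrow. In such sums fewer cells with a transcript and fewer transcripts per cell cannot be told apart, and the shares of cells with a UMI were therefore measured as well. Between neighbouring libraries the median gene of at least 10 CPM in any library moved by 0.0130 or less on the log2 scale. Barcode sequences were shared between libraries in 7 cases, at most 2 for a pair. The cells themselves differed along the series: T, the brachyury gene of the primitive streak, was found in 0.542% of cells in FGFRi and 65.5% at 12 ng/ml, and cells with at least 5 UMIs of the mesenchymal genes Acta2 and Tagln but none of T made up 60.9% and 2.04%. The part of this shift in the summed levels was not tested. A gene was called higher or lower when its CPM differed by a factor of at least 2 and reached 1 CPM in either library.

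The ligand Nodal was nearly level across the series. It measured 5.90 CPM (5.23 to 6.63) in FGFRi, 6.21 (5.58 to 6.90) without FGF2, 5.54 (5.04 to 6.08) at 0.75, 6.22 (5.63 to 6.86) at 3 and 8.15 (7.50 to 8.85) at 12 ng/ml. The first 4 intervals overlapped, and that at 12 ng/ml lay above them all. The ratio from 0 to 12 ng/ml was 1.31 (1.15 to 1.502), well under the factor of 2. Among 10428 genes that reached 5 CPM in any library, 47.2% spanned a smaller range of log2(CPM + 1) over the 5 libraries than Nodal.

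Its co-receptor followed the dose instead. Tdgf1 measured 0.460 CPM (0.288 to 0.696) in FGFRi, 0.546 (0.371 to 0.775) without FGF2, 1.73 (1.46 to 2.04) at 0.75, 4.64 (4.13 to 5.20) at 3 and 16.6 (15.6 to 17.5) at 12 ng/ml. The FGFRi and 0 ng/ml libraries could not be told apart, at 22 and 31 UMIs, and every later library lay above the one before it. The successive ratios were 3.17 (2.14 to 4.84) from 0 to 0.75 ng/ml, 2.69 (2.19 to 3.30) from 0.75 to 3 ng/ml and 3.57 (3.14 to 4.07) from 3 to 12 ng/ml. Over the whole dose range Tdgf1 rose 30.4-fold (21.3 to 44.9). The size of this ratio rests on few cells at its low end: 1 cell held 17 of the 31 UMIs without FGF2, and when the highest cell of each library was left out, an alternative chosen after the data were seen, the ratio was 62.3 (37.0 to 114). The log2 range of Tdgf1 over the libraries was larger than that of 98.8% of genes.

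The inhibitors Lefty1 and Lefty2 also rose, but their increase began below the first FGF2 dose and flattened at the top. Lefty1 measured 0.418 CPM (0.255 to 0.646) in FGFRi, 2.90 (2.48 to 3.38) without FGF2, 8.38 (7.76 to 9.03) at 0.75, 18.6 (17.6 to 19.7) at 3 and 21.2 (20.1 to 22.3) at 12 ng/ml. Lefty2 measured 0.502 CPM (0.322 to 0.747) in FGFRi, 2.13 (1.77 to 2.54) without FGF2, 6.75 (6.19 to 7.33) at 0.75, 10.9 (10.1 to 11.8) at 3 and 11.9 (11.1 to 12.7) at 12 ng/ml. From FGFRi to 0 ng/ml, where the ratio of Tdgf1 was 1.19 (0.665 to 2.15), Lefty1 rose 6.94-fold (4.35 to 11.7) and Lefty2 4.24-fold (2.72 to 6.88). These ratios rest on few cells. Lefty1 was found in 11 cells in FGFRi and 29 without FGF2, where 17 cells held 92.7% of its UMIs, and Lefty2 in 18 and 66 cells. Between 0 and 12 ng/ml the rises were 7.30-fold (6.21 to 8.62) and 5.59-fold (4.61 to 6.82). At the last step, from 3 to 12 ng/ml, the ratios were only 1.14 (1.05 to 1.23) for Lefty1 and 1.09 (0.984 to 1.20) for Lefty2, while that of Tdgf1 was 3.57.

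The Smad partner Foxh1 was close to the limit of detection. Its UMI counts were 2, 10, 33, 20 and 23 from FGFRi to 12 ng/ml, or 0.0418, 0.176, 0.405, 0.310 and 0.325 CPM, so it never reached the 1 CPM that the size rule asks for. The 3 libraries with FGF2 had overlapping intervals, and the ratio from 0 to 0.75 ng/ml was 2.30 with a wide interval (1.11 to 5.23).

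No receptor passed the factor of 2 in any pair of libraries, and their largest differences lay between FGFRi and the rest. Acvr2b, a type II receptor, measured 37.3 CPM (35.6 to 39.1) in FGFRi, 59.6 (57.6 to 61.6) without FGF2, 63.0 (61.3 to 64.7) at 0.75, 73.2 (71.1 to 75.3) at 3 and 73.4 (71.4 to 75.4) at 12 ng/ml. Acvr1, a type I receptor that mainly carries BMP signals, went the other way, with 12.6 CPM (11.6 to 13.7) in FGFRi against 7.52, 6.54, 6.47 and 6.63 CPM in the 4 other libraries. The ratio from FGFRi to 0 ng/ml was 1.60 (1.51 to 1.69) for Acvr2b, and Acvr1 was 1.68 times (1.48 to 1.90) as high in FGFRi as without FGF2. Acvr1b, the type I receptor of Nodal and Activin, stayed between 9.41 and 11.6 CPM. Acvr2a, the other type II receptor, was highest in FGFRi at 14.7 CPM and lay between 9.96 and 11.9 CPM elsewhere.

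Counted over the members, 2 of the 7 that reached 1 CPM were called higher from FGFRi to 0 ng/ml (Lefty1 and Lefty2), where 4.43% of 12828 genes were called higher and 7.90% lower, 12.3% in either direction. From 0 to 0.75 ng/ml it was 3 of 8 (Tdgf1, Lefty1 and Lefty2), beside 0.890% of genes higher and 2.62% lower, 3.51% in all. From 0.75 to 3 ng/ml 2 members were called higher (Tdgf1 and Lefty1), beside 0.624% higher and 1.41% lower, 2.03% in all, and from 3 to 12 ng/ml 1 member (Tdgf1), beside 0.274% higher and 0.250% lower, 0.523% in all. From 0 to 12 ng/ml 3 of 8 members were called higher, beside 3.58% higher and 6.77% lower, 10.3% in all, and none was called lower in any of these pairs. The plot of levels by library shows the 3 kinds of profile: level for Nodal, stepwise rising for Tdgf1, and rising then flattening for Lefty1 and Lefty2.

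**Figure D1:**
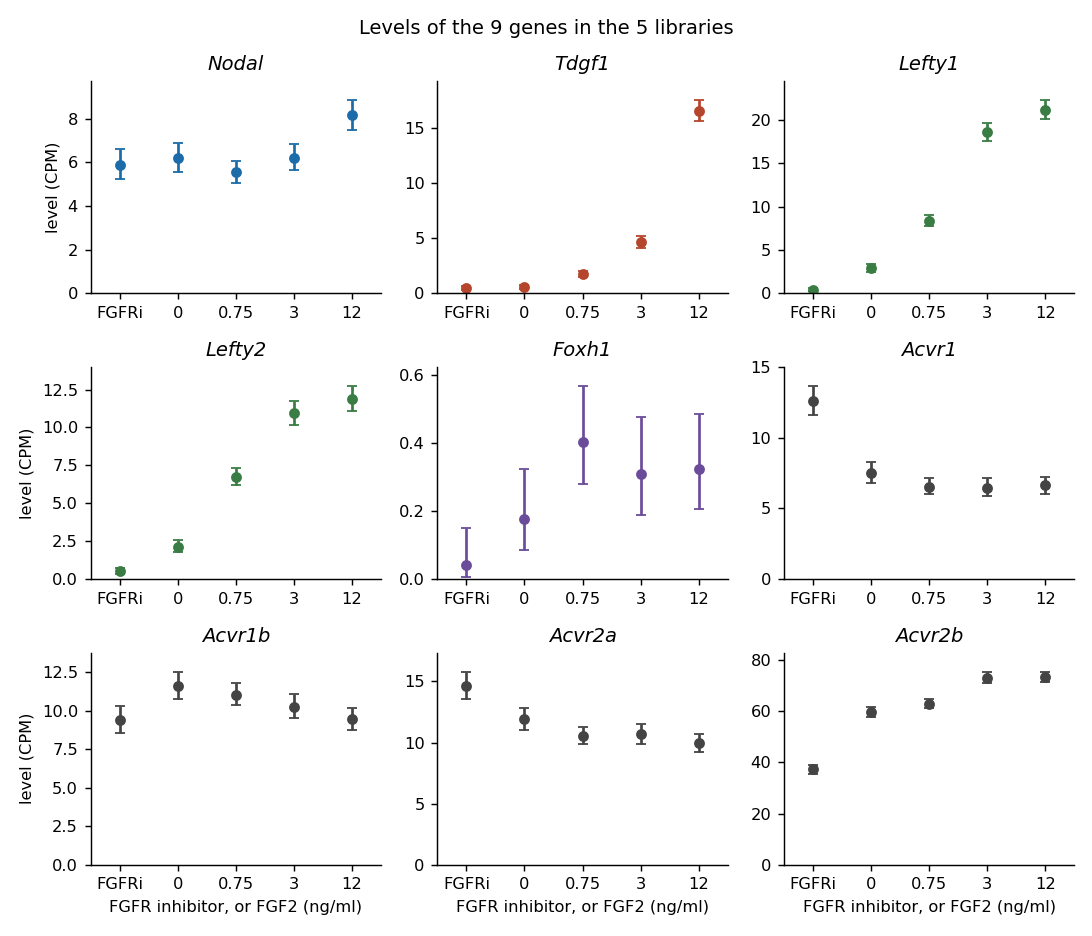
Level of each of the 9 genes (y axis, CPM, linear from 0, each panel with its own scale) in the FGFRi library and at 0, 0.75, 3 and 12 ng/ml FGF2 (x axis), as points with exact Poisson 95% intervals and 1 library per point. Nodal stays between 5.54 and 8.15 CPM while Tdgf1 goes from 0.460 to 16.6 CPM, and Acvr1 and Acvr2b differ mainly between FGFRi and the other libraries.

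Lefty1 and Lefty2 had profiles closer to each other than to Tdgf1 or Nodal. On log2(CPM + 1) values centred on their mean, the root mean square distance over the 5 libraries was 0.317 between Lefty1 and Lefty2, 0.758 between Tdgf1 and Lefty1, and 1.41 between Nodal and Lefty1. Lefty2 was the gene of rank 16 in likeness to Lefty1 among the 10428 genes. The 5 genes with the profile most like that of Nodal were Atg4d, Atf5, Cdc42ep4, Alg3 and Ltbr, at distances of 0.0308 to 0.0576.

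The rest of the pathway was described with 33 other genes, listed by role. Between 0 and 12 ng/ml 27 of them reached 1 CPM, of which 8 were called higher and 5 lower, where 3.58% of all genes were called higher and 6.77% lower. Among ligands, Inhba, which encodes the subunit of Activin A, fell along the series, with 9.12 CPM in FGFRi, then 1.76, 1.01, 0.542 and 0.268 CPM. It was 5.18 times (4.16 to 6.50) as high in FGFRi as without FGF2, and 6.56 times (3.99 to 11.3) as high without FGF2 as at 12 ng/ml. Gdf1, a ligand that pairs with Nodal, had no UMI in any library, and Gdf3 had at most 5 UMIs. By counting alone, no UMI allows up to 0.0627 CPM (3 UMIs) in the shallowest library. Overlap with other genes was checked only for the 9 members, so lost reads of Gdf1 were not tested and its absence is not shown. Gdf1 and Gdf3, and Acvr1c and Cer1, were named for their low counts after the values were seen. Furin, a convertase that can cleave the Nodal precursor, measured 62.6 CPM in FGFRi, 30.3 without FGF2, and 15.5 to 17.2 CPM with FGF2.

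The second co-receptor gene, Cfc1 (Cryptic), measured 0.920, 1.69, 3.86, 4.89 and 3.60 CPM and rose 2.13-fold (1.68 to 2.73) from 0 to 12 ng/ml. Unlike Tdgf1 it was highest at 3 ng/ml, and its ratio from 3 to 12 ng/ml was 0.737. None of the transducers passed the size rule. Smad2 measured 56.8 CPM in FGFRi and 39.8 at 12 ng/ml, Smad3 12.8 and 8.70, and Smad4 112 and 97.0. Acvr1c, a further type I receptor for Nodal, had 1 to 6 UMIs.

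Among inhibitors other than the Lefty genes, those called from 0 to 12 ng/ml went both ways. Fst, which encodes the Activin-binding protein follistatin, measured 8.53 CPM in FGFRi, 5.81 without FGF2, 18.8 at 0.75, 64.3 at 3 and 70.2 at 12 ng/ml, a 12.1-fold (10.8 to 13.5) rise from 0 to 12 ng/ml. At the last step, from 3 to 12 ng/ml, its ratio was 1.09, close to those of the Lefty genes. Its relative Fstl3 fell from 1.00 to 0.311 CPM between 0 and 12 ng/ml, and the pseudoreceptor gene Bambi from 67.1 to 31.0 CPM. Bambi was higher still in FGFRi, at 169 CPM, and it is also induced by BMP. Cer1, another Nodal inhibitor, had at most 3 UMIs in a library.

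Of 10 genes known as targets of the pathway, 9 reached 1 CPM and 6 were called higher from 0 to 12 ng/ml, namely Mixl1, Mesp1, Lhx1, Eomes, Hhex and Gsc, and 2 lower, where 3.58% of all genes were called higher and 6.77% lower. Eomes, a T-box factor that Nodal signaling induces in the streak, measured 0.125, 0.246, 0.613, 1.42 and 1.98 CPM, and Lhx1, a LIM homeodomain factor of the streak and its mesoderm, measured 2.11, 1.60, 3.20, 8.03 and 13.4 CPM. Gsc, the goosecoid homeobox gene, only just reached the minimum at 1.22 CPM. Sox17 and Pmepa1 were the 2 called lower. Sox17, an endoderm factor, measured 0.293 CPM in FGFRi, 3.36 without FGF2, 2.40 at 0.75, 1.099 at 3 and 0.636 at 12 ng/ml. Pmepa1, a TGF-beta feedback gene, measured 137, 47.6, 17.9, 11.1 and 17.1 CPM. Several of these genes also respond to Wnt, BMP or FGF, and their levels do not measure Nodal signaling by themselves. From 3 to 12 ng/ml none of the 33 genes was called, beside 0.523% of all genes in either direction, so Tdgf1 was alone among the 42 pathway genes in passing the rule at this step.

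**Figure D2:**
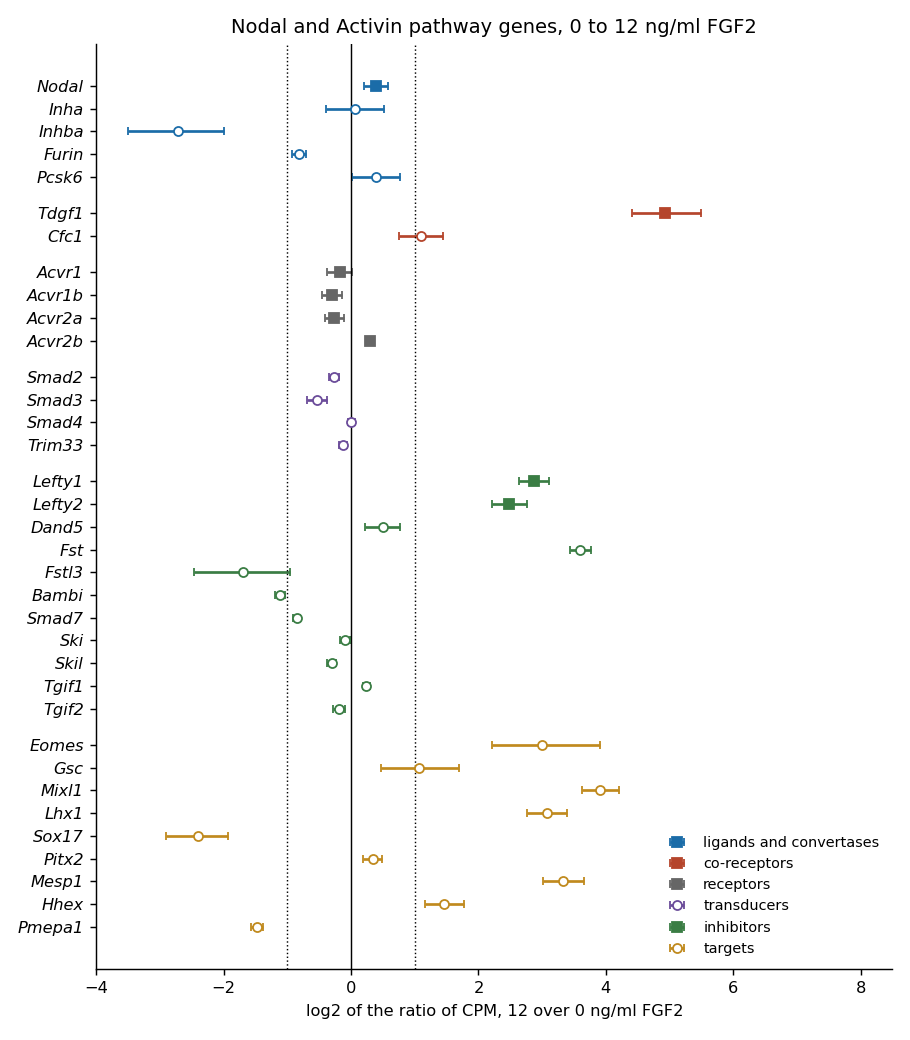
Log2 of the ratio of CPM at 12 over 0 ng/ml FGF2 (x axis) for the pathway genes that reached 1 CPM in either library (y axis), coloured by role, with exact conditional 95% intervals. Filled squares are the members and open circles the other genes, the dotted lines mark a factor of 2, and Tdgf1, Mixl1, Fst, Lefty1 and Lefty2 lie far to the right while the receptors and Smad genes lie inside the dotted lines.

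Apart from Acvr2b, these genes were found in a small part of the cells. After each cell was thinned to 10000 UMIs, which left out 94 shallower cells, Nodal was found in 3.97% of cells (exact binomial 95% interval 3.08 to 5.02) in FGFRi, 3.87% without FGF2, 4.55% at 0.75, 3.83% at 3 and 4.63% (3.82 to 5.55) at 12 ng/ml. Tdgf1 was found in 0.481%, 0.179%, 0.739%, 1.42% and 2.67% of cells in the same order, and Lefty1 in 0.301%, 0.953%, 2.25%, 4.92% and 6.09%. Lefty2 was found in 0.421%, 1.37%, 3.47%, 4.87% and 5.88%. Nodal showed no dose trend in its shares. Those of Tdgf1, Lefty1 and Lefty2 were higher at each FGF2 dose than at the one before. Intervals of neighbouring doses overlapped for Tdgf1 up to 3 ng/ml, for Lefty2 from 0.75 ng/ml on and for Lefty1 between 3 and 12 ng/ml. Between FGFRi and 0 ng/ml they overlapped for Lefty1 (0.0978% to 0.701% and 0.546% to 1.54%). For Lefty2 they lay just apart there (0.169% to 0.866% and 0.870% to 2.05%). Acvr2b was found in 30.5% of cells in FGFRi and 51.3% at 12 ng/ml, and the 3 other receptors in 5.91% to 14.0% of the cells of a library. Foxh1 was found in 1 to 12 cells of a library.

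A share near that in cells which should lack a gene reads as background. The Acta2 and Tagln cells without T were meant to give it. Tdgf1 was found in 0.0988% of 1012 such cells in FGFRi and in 0 of 450 without FGF2, which allows up to 0.667%. In the whole libraries it was found in 8 and 3 cells, with overlapping intervals, and the share without FGF2 lay under that limit. For Nodal they did not serve, since 5.24% of them held Nodal in FGFRi and 8.89% (6.43 to 11.9) without FGF2, the latter above the 3.87% (3.00 to 4.91) of the whole library. Without FGF2 these cells had a median of 37362 UMIs before thinning, against 29661.5 in all retained cells, and Nodal measured 11.1 CPM in them (9.65 to 12.7). Lefty2 was found in 3.33% of them without FGF2 and 8.08% at 0.75 ng/ml, above its shares of 1.37% and 3.47% in the whole libraries. Lefty1 was found in 0.889% and 2.02%, close to its shares there. At 3 and 12 ng/ml these cells numbered only 32 and 49. The shares of Nodal, Lefty1, Lefty2 and Foxh1 are therefore given without a background share.

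For Tdgf1, both the number of cells and the UMIs per cell were higher at high FGF2. Without thinning, it was found in 10 cells without FGF2 with a mean of 3.10 UMIs each, in 40 cells at 0.75 (3.53 UMIs), in 49 cells at 3 (6.12 UMIs) and in 105 cells at 12 ng/ml (11.2 UMIs). The highest cell at 12 ng/ml held 87 UMIs, and the 24 cells with most Tdgf1, 1% of the library, held 76.9% of its UMIs. Nodal was less concentrated. In 267 cells at 12 ng/ml it had a mean of 2.16 UMIs, and the top 1% of cells held 37.3%. For Lefty1 the share of the top 1% of cells went from 92.7% without FGF2 to 43.9% at 12 ng/ml, as the number of cells with it went from 29 to 235.

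Within a library, Lefty1 and Lefty2 were found more often in cells that held Nodal than in cells that did not. Lefty1 was present in 16.3% of the 123 Nodal-positive cells with 0.75 ng/ml FGF2 against 1.59% of Nodal-negative cells, in 22.2% of 81 against 4.23% at 3, and in 18.9% of 111 against 5.47% at 12 ng/ml. The differences were 14.7 percentage points (8.61 to 22.4), 18.0 points (9.45 to 28.6) and 13.5 points (6.57 to 22.0). Lefty2 gave 12.2% against 3.06%, 19.8% against 4.28% and 14.4% against 5.47% at the same doses. For Lefty2 at 12 ng/ml the difference was 8.95 points (2.92 to 16.9), but 3.93 (-1.37 to 13.4) when cells were thinned to 5000 UMIs and 4.40 (-0.925 to 12.2) with at most 5% mitochondrial UMIs. Without FGF2 Lefty2 was found in 6 of 65 Nodal-positive cells and 1.05% of the others, and Lefty1 in 3 of 65. In FGFRi 1 of 66 Nodal-positive cells held Lefty1 and none held Lefty2, against 0.251% and 0.439% of Nodal-negative cells. Without thinning the shares there were 2.92% and 0.392% for Lefty1, a difference of 2.53 points (0.511 to 6.31). For Lefty2 they were 2.34% and 0.915%, with an interval that included 0. These intervals treat cells as independent, although the cells of a library shared one culture.

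Tdgf1 was found with Nodal as well, in 6 of 123 Nodal-positive cells at 0.75, 5 of 81 at 3 and 14 of 111 at 12 ng/ml. The last made 12.6% against 2.19% of Nodal-negative cells, a difference of 10.4 points (4.84 to 18.1). To place these values, the ratio of the 2 shares was taken for every gene found in at least 2% of the cells of a library, whose median was 0.997 to 1.01. Lefty1 lay at the percentiles 99.99, 99.9 and 99.4 of these genes at 0.75, 3 and 12 ng/ml, Lefty2 at 99.8, 99.8 and 98.5, and Tdgf1 at 99.9 at 12 ng/ml. A gene found in few cells can reach a higher ratio than one found in many. Genes of like frequency were not compared, so these percentiles in part reflect how rare the 3 genes were. The receptors spread over the range, with Acvr2a at 4.95, 34.9 and 47.9, and Acvr1b at 91.7, 96.3 and 89.96. Lefty1 and Lefty2 were also found together in 41 cells at 12 ng/ml, 4.77 times the 8.59 cells that the product of their shares gives, and how many reads the 2 genes shared was not tested.

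T was linked to Nodal less clearly. It was present in 39.0% of Nodal-positive and 33.1% of Nodal-negative cells at 0.75, in 72.8% and 59.5% at 3 and in 67.6% and 65.4% at 12 ng/ml. The difference at 3 ng/ml was 13.3 points (2.07 to 22.8), with 4.47 points (-2.08 to 10.3) without thinning and 27.6 (11.5 to 40.7) with cells thinned to 5000 UMIs. At 12 ng/ml it was 2.17 points (-7.57 to 11.0), and 19.2 (6.25 to 30.4) with cells thinned to 5000 UMIs, so both values depended on the depth. Without FGF2, 1 of 65 Nodal-positive cells held T against 15.7% of the others, a difference of -14.1 points (-16.5 to -7.18). This last value rested on the thinning: without it the shares were 19.1% and 25.2%, a difference of -6.13 points (-12.1 to 0.774). Mixl1, another streak gene, was more frequent in Nodal-positive cells at 0.75, 3 and 12 ng/ml (at 12, 23.4% and 15.3%), with intervals above 0. So were Lhx1 (11.1% and 4.72%) and Fgf8 (67.9% and 55.2%), but only at 3 ng/ml. Without FGF2, Fgf8 was less frequent in them (1.54% and 15.1%). For Eomes, Mesp1, Evx1 and Snai1 the intervals included 0 at each dose. Other depths were not tried for these genes.

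**Figure D3:**
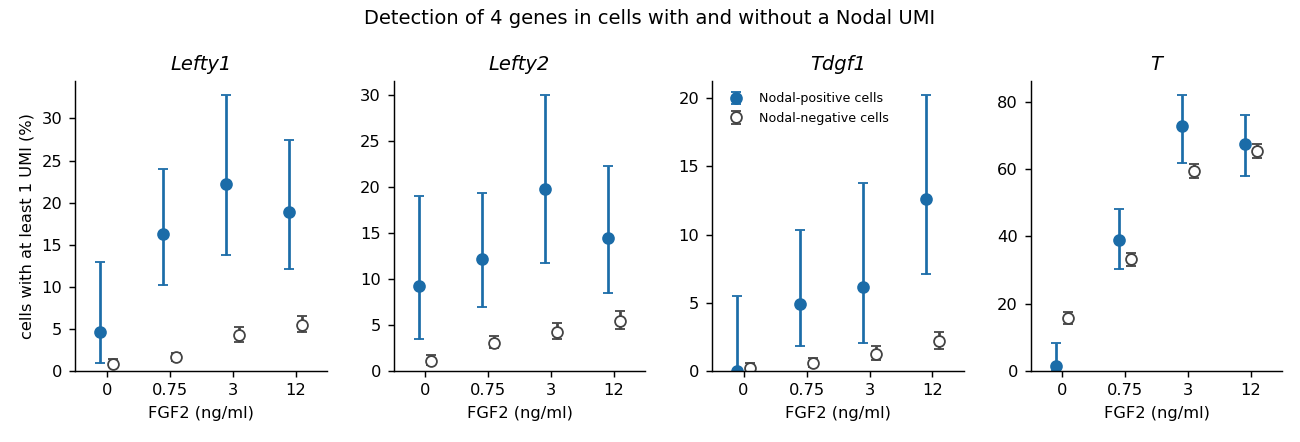
Share of Nodal-positive cells (filled) and Nodal-negative cells (open) with at least 1 UMI (y axis, percent, from 0) of Lefty1, Lefty2, Tdgf1 or T at each FGF2 dose (x axis), cells thinned to 10000 UMIs, with exact binomial 95% intervals. For Lefty1 and Lefty2 the filled points lie above the open ones at each dose, 0 ng/ml included, at 18.9% against 5.47% for Lefty1 at 12 ng/ml, while for T they lie close together at 12 ng/ml.

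The position of these genes along the switch from E-cadherin (Cdh1) to N-cadherin (Cdh2), which accompanies the exit of cells from an epithelium, was taken from cells with UMIs of one, the other or both. UMIs were scored after thinning, and levels were taken from all UMIs of the cells. Nodal was lowest of the 3 classes in cells with Cdh2 only, with separate intervals in all libraries but FGFRi. At 12 ng/ml it measured 18.2 CPM (15.7 to 21.0) with Cdh1 only, 21.7 (18.0 to 25.8) with both and 4.37 (3.73 to 5.10) with Cdh2 only. At 3 ng/ml the levels were 10.8, 14.7 and 3.31 CPM, at 0.75 ng/ml 7.25, 14.8 and 2.14 CPM, and without FGF2 7.85, 8.78 and 2.99 CPM. In FGFRi the 3 classes had overlapping intervals, at 6.29, 6.99 and 5.29 CPM.

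While the total of Nodal was nearly constant, its level in these classes and their shares of cells differed along the series. In cells with Cdh1 only, Nodal measured 7.85 CPM (6.75 to 9.07) without FGF2 and 18.2 (15.7 to 21.0) at 12 ng/ml, while the share of these cells went from 40.7% to 13.8% and that of cells with Cdh2 only from 26.2% to 53.6%. Within the class with Cdh2 only, Nodal measured 2.99 and 4.37 CPM. Cells with UMIs of neither cadherin are not described here, so the classes given do not account for the whole total. The classes are cut from single UMIs, so a cell with little Cdh1 can fall outside its class.

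The summed level of Tdgf1 was placed differently from that of Nodal. At 12 ng/ml Tdgf1 measured 7.15 CPM (5.62 to 8.96) with Cdh1 only, 18.7 (15.4 to 22.6) with both and 25.4 (23.9 to 27.1) with Cdh2 only. At 3 ng/ml it measured 1.36, 2.32 and 7.22 CPM. At 12 ng/ml 24 cells held 76.9% of the Tdgf1 UMIs, and at 3 ng/ml 21 cells held 85.0%. The class levels of Tdgf1 may therefore rest on few cells, and their intervals can be too narrow. Lefty1 stood out in cells with both cadherins at 0.75 ng/ml, with 43.9 CPM (38.3 to 49.98) against 4.44 with Cdh1 only and 6.34 with Cdh2 only. In that library 27 cells held 73.9% of the Lefty1 UMIs, and the highest cell held 50. How many cells made up the level of this class is not given, so it may rest on few. At 12 ng/ml its 3 levels were 20.3, 32.9 and 18.8 CPM in the order Cdh1 only, both, Cdh2 only. Lefty2 measured 8.66, 15.9 and 2.40 CPM at 0.75 and 13.8, 20.6 and 10.47 CPM at 12 ng/ml in that order. The double-positive class was small, with 117 to 193 cells in a library.

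**Figure D4:**
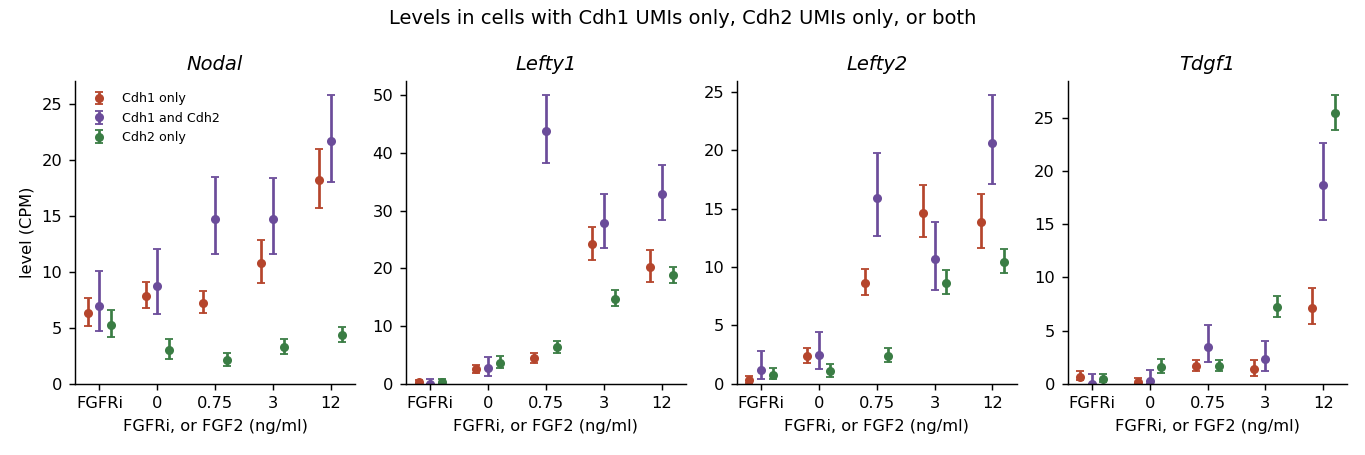
Levels of Nodal, Lefty1, Lefty2 and Tdgf1 (y axis, CPM, from 0) in cells with Cdh1 only, both cadherins or Cdh2 only, by library (x axis), with exact Poisson 95% intervals. With FGF2, Nodal is lowest in cells with Cdh2 only (4.37 CPM at 12 ng/ml), Tdgf1 at 12 ng/ml is highest there (25.4 CPM), and Lefty1 peaks in double-positive cells at 0.75 ng/ml (43.9 CPM). In the 0.75 ng/ml library 27 cells held 73.9% of the Lefty1 UMIs, and at 12 ng/ml 24 cells held 76.9% of the Tdgf1 UMIs.

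Split by T, Lefty1 was higher in T-positive cells at each FGF2 dose. It measured 8.99 CPM with T and 1.86 without at 0, 18.6 and 3.14 at 0.75, 28.5 and 3.25 at 3, and 26.2 and 11.6 at 12 ng/ml. Lefty2 did not separate at 0 ng/ml, with 1.80 CPM (1.01 to 2.96) and 2.19 (1.80 to 2.65), and measured 15.6 and 3.68 CPM at 3 ng/ml. Tdgf1 measured 3.23 and 0.0828 CPM at 0 ng/ml, where 27 of its UMIs lay in T-positive cells and 17 of all 31 in a single cell. Nodal was lower in T-positive cells at 0 ng/ml, at 3.83 CPM (2.62 to 5.41) against 6.62 (5.92 to 7.39), and higher in them at 12 ng/ml, at 9.55 (8.68 to 10.48) against 5.43 (4.54 to 6.44). The shares of cells hardly differed at 12 ng/ml: after thinning, 67.6% of Nodal-positive and 65.4% of Nodal-negative cells held T. In that library 24 cells held 37.3% of the Nodal UMIs. How far such cells set the difference in level was not tested.

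Nodal-positive cells at 12 ng/ml also held several markers of the epiblast and of epithelia more often. At 12 ng/ml the pluripotency factor gene Pou5f1 was present in 32.4% of Nodal-positive and 7.44% of Nodal-negative cells, Nanog in 9.01% and 1.14%, and Utf1, which marks undifferentiated cells, in 20.7% and 3.63%. Cdh1 was present in 48.6% and 20.6%, and Epcam, an epithelial adhesion gene, in 73.0% and 50.5%. Of 4 genes of extraembryonic and surface ectoderm, the keratin gene Krt18 (69.4% and 33.9%) and Gata3 (11.7% and 3.46%) were more frequent in Nodal-positive cells, Hand1 was less frequent (8.11% and 15.6%) and Tfap2a gave 4.5045% and 4.81%. Not all epiblast genes were of this kind, since Sox2 gave 19.8% and 15.6% and Dnmt3b 47.7% and 42.7%, with intervals of the difference that included 0. Of 4 mesenchyme genes, Tagln (25.2% and 6.34%) and Ahnak (45.9% and 16.1%) were more frequent in Nodal-positive cells at 12 ng/ml. Acta2 gave 11.7% and 13.4%, with an interval that included 0, and Prrx1 was found in none of them, beside 0.481% of Nodal-negative cells. With less FGF signaling Acta2 was more frequent in Nodal-positive cells, in FGFRi (72.7% and 56.2%) and without FGF2 (40.0% and 23.0%), with intervals above 0. Prrx1 was less frequent in them in FGFRi (10.6% and 33.8%). In FGFRi Pou5f1 gave 1.52% and 1.69%, and none of the 66 Nodal-positive cells held Nanog or Utf1. Of the Nodal-negative cells there, 0.501% held Nanog and 1.38% Utf1, and the intervals for these genes included 0. The intervals for Cdh1 and Epcam included 0 there, as did that for Nanog at 3 ng/ml and that for Utf1 without FGF2.

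Several markers of the presomitic mesoderm were less often found in Nodal-positive cells. Tbx6, a T-box factor of that tissue, was present in 12.6% of Nodal-positive and 33.3% of Nodal-negative cells at 12 ng/ml, a difference of -20.7 points (-26.6 to -12.8). The segmentation clock gene Hes7 gave 21.6% and 53.0%, and the Notch ligand gene Dll1 14.4% and 36.1%. Msgn1, of the same list, gave 1.80% and 2.54%, with an interval that included 0. At 3 ng/ml Hes7 was found in 18 of 81 Nodal-positive cells, a difference of -27.8 points (-36.5 to -16.9), while for Tbx6 the shares were 18.5% and 20.9%, with an interval that included 0. Noto, a gene of the node, had at most 1 UMI in a library.

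**Figure D5:**
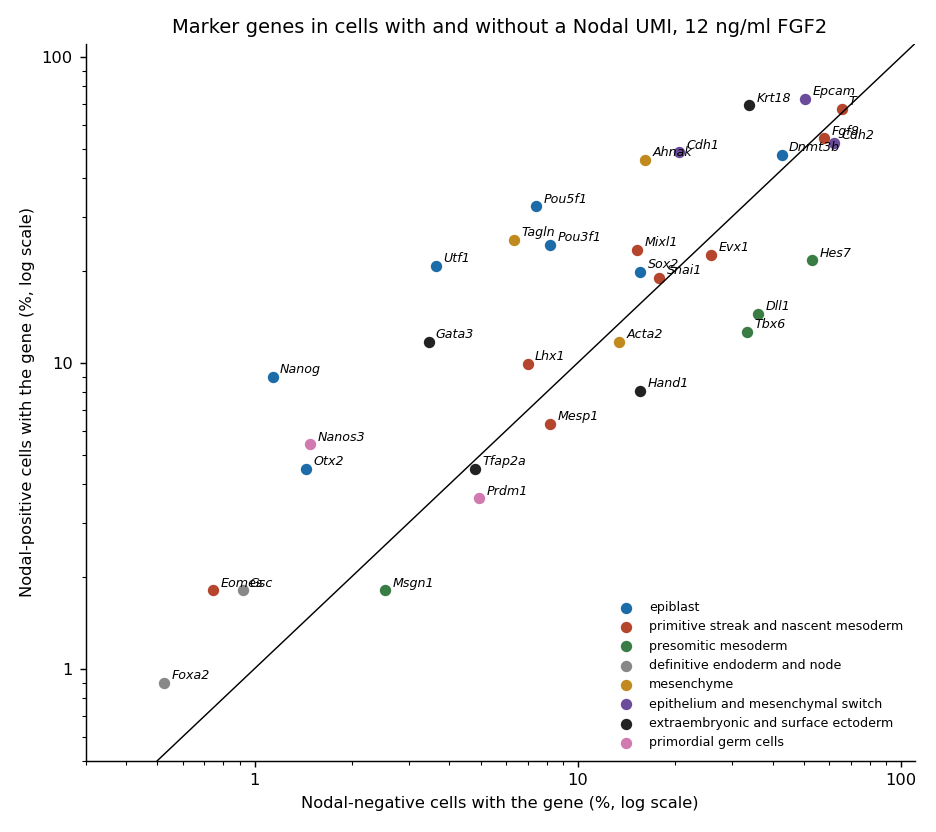
Marker genes at 12 ng/ml FGF2: percent of Nodal-positive cells with the gene (y axis, log scale) against percent of Nodal-negative cells (x axis, log scale), coloured by marker list, with the line of equal shares, cells thinned to 10000 UMIs. Rare genes and those absent from Nodal-positive cells are not drawn; Pou5f1, Nanog and Utf1 lie above the line and Tbx6, Hes7 and Dll1 below it.

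Over the 4 libraries without inhibitor, 380 cells held Nodal after thinning. The comparison took 9339 genes found in at least 20 of them and in at least 2% of the cells of each library. This leaves out Lefty1, Lefty2, Tdgf1 and Nanog, which were not ranked. Among the genes compared, the 5 with the highest ratio of shares were Utf1 at 4.96, Chst15 at 4.62, Pxdc1 at 4.62, Gbp2b at 4.40 and Gbp2 at 4.38, where the median gene had 1.01. Here too, genes found in few cells can reach higher ratios. Gbp2 and Gbp2b encode interferon-induced GTPases of one family that may share reads. Gbp2 was present in 40.5% of Nodal-positive and 9.10% of Nodal-negative cells at 12 ng/ml.

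Cells rich in Tdgf1 held more Eomes and Lhx1 than cells rich in Nodal. The cut of 5 UMIs was chosen after the values were seen, and the values are a description without intervals. Each group was cut by itself, and how many cells are in both was not counted. Mixl1 and Mesp1 are given for the Tdgf1-rich cells only and Cdh1 for the Nodal-rich cells only, so these 3 genes do not compare the groups. In the 47 cells with at least 5 Tdgf1 UMIs at 12 ng/ml, Eomes measured 36.2 CPM against 0.974 in cells without Tdgf1, Lhx1 163 against 8.54, Mixl1 145 against 25.5 and Mesp1 106 against 12.7 CPM. In the 20 cells with at least 5 Nodal UMIs, Eomes measured 2.38 CPM (2 UMIs) against 1.23 in cells without Nodal, Lhx1 14.3 against 11.2 and Cdh1 138 CPM against 33.2 CPM. Both groups held more Pou5f1 than their counterparts, at 47.5 against 9.35 CPM and 56.0 against 8.14 CPM. Both also held more Lefty1, at 93.0 against 17.7 CPM in the Tdgf1-rich and 71.5 against 13.3 CPM in the Nodal-rich cells. At 3 ng/ml the 14 cells with at least 5 Tdgf1 UMIs had 101 CPM of Lhx1 against 5.86, and 18.3 CPM of Eomes against 0.736.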

How the data were processed

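Counts of unique molecular identifiers (UMIs) per gene and barcode were deposited by the authors as 1 filtered matrix for each of the 5 libraries, made with Cell Ranger from 10x 3′ libraries on mm10. The matrix header names Cell Ranger 5.0.1 and the methods an earlier version. Barcodes with at least 2500 genes and at most 10% mitochondrial UMIs were kept, and no doublet caller was run. Counts were summed per library and expressed per 1000000 UMIs (CPM). With 1 library per condition no pair of conditions could be tested and no dose trend was fitted. A gene was called by size (a ratio of at least 2 and 1 CPM in either library). Intervals were exact Poisson, conditional or binomial, at 95%. For differences of shares, the exact binomial bounds of the 2 shares were combined into a hybrid interval. For shares, cells were thinned to 10000 UMIs. Python 3.11.15, NumPy 2.4.6, SciPy 1.17.1 and, for TMM factors as an alternative, edgeR 4.0.16 were used. The scripts were tested on simulated data. Other alternatives were mitochondrial cuts, size rules, thinning depths and left-out deep cells.

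Named genes were the 9 members, marker and pathway genes from lists, Smad2, Smad3 and Smad4, and the 5 genes closest to Nodal in profile or in detection. A few others are said to be named after their values were seen. The members and lists were chosen with earlier results of these data known. Transcripts and gene positions came from GENCODE vM21 on GRCm38, and promoters from RefSeq (GRCm38.p6), which held 6 of the 9 genes.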

Additional observations from a re-analysis of the deposited data

Results flagged for a closer look

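Tdgf1 gave a signal in barcodes that the report does not use. At 3 ng/ml FGF2, the 942 barcodes left out for few genes or many mitochondrial UMIs held 43.6 CPM of Tdgf1 (35.3 to 53.4), against 4.64 CPM in the retained cells, whose upper limit was 5.20. These were 94 UMIs in 47 barcodes with a median of 1358 UMIs, and 42 of the 47 had at most 10% mitochondrial UMIs, so most were left out for few genes. No barcode held more than 7 Tdgf1 UMIs. The left-out barcodes of the FGFRi, 0, 0.75 and 12 ng/ml libraries held 0, 0, 6 and 2 Tdgf1 UMIs.

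Acvr2a was higher in the left-out barcodes of each library. It measured 31.6 CPM (24.5 to 40.0) against 10.7 in retained cells at 3 ng/ml, in FGFRi 20.1 against 14.7, without FGF2 17.1 against 11.9, at 0.75 ng/ml 21.5 against 10.55 and at 12 ng/ml 23.7 against 9.96. In FGFRi and without FGF2 the intervals of left-out and retained barcodes overlapped. The value at 3 ng/ml came from 68 UMIs in 62 barcodes, of which 18 had at most 10% mitochondrial UMIs, and their median was 38.2%. Of the 45 combinations of gene and library, Tdgf1 and Acvr2a at 3 ng/ml were the 2 whose lower limit exceeded the upper limit of the retained cells by a factor of 2. Lefty1 in FGFRi measured 2.13 CPM (0.693 to 4.98, 5 UMIs of 1 barcode) against 0.418.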

How the results depend on the processing

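The cause of the shifts given here was not tested. Tdgf1 rose 20.6-fold from 0 to 12 ng/ml with equal weight per cell and 62.3-fold without the highest cell of each library, a setting chosen after the data were seen, against 30.4-fold, and Lefty1 10.1-fold with at most 5% mitochondrial UMIs, against 7.30-fold. From 3 to 12 ng/ml the ratio of Tdgf1 was 3.57, but 2.73 over all barcodes, 2.75 without the deepest 5% of cells and 2.69 with equal weight per cell. At a minimum of 5 CPM, 0 members were called higher from FGFRi to 0 ng/ml (2 in the report) and 1 from 0.75 to 3 ng/ml (2 in the report), and at a ratio of 1.5 the first count was 4. Shares at 12 ng/ml depended on depth. Without thinning they were 11.1% for Nodal, 4.36% for Tdgf1, 9.77% for Lefty1 and 10.4% for Lefty2, and thinned to 5000 UMIs they were 2.66% for Nodal, 4.36% for Lefty1 and 3.99% for Lefty2. The difference for T between Nodal-positive and Nodal-negative cells without FGF2 was -6.13 points without thinning, -2.71 at 5000 UMIs and -5.08 with at least 2 Nodal UMIs, and at 12 ng/ml it was 19.2 at 5000 UMIs. At 12 ng/ml the difference was 27.8 points without thinning and 30.8 with at least 2 Nodal UMIs for Lefty1, 19.9 and 21.9 for Lefty2, and 24.1 with at least 2 Nodal UMIs for Tdgf1. For Lefty2 it was 3.93 at 5000 UMIs and, also chosen afterwards, 4.40 with at most 5% mitochondrial UMIs, against 8.95 in the report. The difference for Tdgf1 at 3 ng/ml reversed to -0.720 points at 5000 UMIs.

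Counts of other pathway genes called moved from 8 to 4 (FGFRi to 0 ng/ml), from 5 to 3 (0.75 to 3 ng/ml) and from 13 to 7 (0 to 12 ng/ml) at a minimum of 5 CPM. With no minimum they moved from 5 to 9 (0 to 0.75 ng/ml) and from 0 to 4 (3 to 12 ng/ml), and at a ratio of 1.5 from 5 to 11, from 5 to 8 (0.75 to 3 ng/ml) and from 0 to 3. Over all genes, the 1313 calls from 0 to 12 ng/ml became 687 at 5 CPM, 4086 with no minimum and 2579 at a ratio of 1.5. No paired analysis was possible because each condition has 1 library. For the same reason no library could be left out, and no interval covers the variation between cultures.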
